A study of Mus musculus with 4 samples.

Results

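Ehmt1, Suv39h2, Smyd3, Kdm5b, Hdac4, Rnf2, Brd3 and H3f3a encode enzymes that write or erase marks on histones, a protein that reads them, and a histone. They were chosen by name and function, and all 8 were found among the 4167 complete gene lines of the deposited table. RNA was measured in long-term haematopoietic stem cells (LT-HSCs), the rare marrow cells that renew themselves and supply all blood lineages, sorted by flow cytometry from mouse tibia and femur. The wild-type group (WT) and the group lacking the stress response transcription factor ATF4 (genotype label ATF4 KO, called a CKO in the series' design) had 2 libraries each. Polyadenylated RNA was made into libraries with a method derived from Smart-seq2. Strain, age, sex, the Cre driver, any inducing agent and whether each library came from its own animal are not given in the sources used here. The p-values therefore measure only the spread between these libraries.

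Histone tails carry chemical marks that set how readily DNA is transcribed. Methylation of H3K9 marks silent chromatin, trimethylation of H3K4 marks active promoters, acetylation opens chromatin, and ubiquitin placed on histone H2A by the Polycomb complex PRC1 represses genes. In blood stem cells such regulators help to hold lineage genes in check and to preserve self-renewal.

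The enzymes and the reader had lower values in ATF4 KO than in WT for 5 genes (Ehmt1, Smyd3, Kdm5b, Hdac4 and Brd3), with both ATF4 KO values below both WT values. The same held for 40.7% of all 1199 tested genes. Both ATF4 KO values lay above both WT values for Suv39h2, by a very small amount, and for H3f3a, as for 40.5% of tested genes, and those of Rnf2 overlapped WT. With limma's test across all tested genes, Hdac4 and Smyd3 were called lower, where 22.4% of tested genes were. Suv39h2 was called higher, where 24.6% were (adjusted p under 0.05, 47.0% of tested genes in either direction). Most calls fell on genes with no read in either ATF4 KO library. These were 257 of the 268 genes called lower and 283 of the 295 called higher, against 677 of all 1199 tested. Hdac4 and Suv39h2 were among them, and Smyd3 was not. The median difference was -1.63 over the 8 genes and 0.02 over all tested genes, on the deposited log2 scale. These medians were not matched for WT level. In genes with no read in either ATF4 KO library, the difference follows the WT level, positive at the lowest levels and negative at higher ones. The medians therefore cannot show whether the 8 genes were lowered more than genes of like WT level. The ATF4 KO values of all 8 genes but H3f3a rested on very few reads.

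The values behave as regularized logarithms, in which each library is drawn towards the gene's mean, and the whole reads behind them were worked out for 1774 of 1928 genes with values. The size factors, the relative depths used for normalisation, came to 21.7 and 17.2 in the WT pair and to 0.0360 (ATF4 KO 1) and 0.0372 (ATF4 KO 2) in the mutant pair. By these factors the mutant libraries reached 0.166% and 0.171% of WT 1's depth, and depth cannot be told apart from genotype. Reads here are the whole numbers that the equation returns. Whether the mutant libraries were this shallow, or whether scaled values had stood in for their counts, was not tested. In the second case the reads, expected reads and Poisson intervals given here would not be those of sequenced fragments. The table covers chromosome 1 and the start of chromosome 2 (GRCm38). Atf4 itself was not analysed here, so the labels were not checked against it. Of 10 markers of LT-HSCs and progenitors, 4 were in the table, and all 4 (Slamf1, Gfi1b, Cd34 and Ptprc) had WT means above 3. Their summed level was 980 and 981 in WT against 349 (ATF4 KO 1) and 741 (ATF4 KO 2). Cd34 and Ptprc made up most of each sum, so the sums say little about Slamf1 and Gfi1b. Cd34 was lower in both ATF4 KO libraries. Ptprc was at 7.68 and 7.52 in WT, lower in ATF4 KO 1 (4.29) and higher in ATF4 KO 2 (8.78). Slamf1 and Gfi1b had no mutant read. The same held for 28.6% of genes around the WT level of Kdm5b, which is near that of Gfi1b. It held for 55.8% around Hdac4 and 78.2% around Bmi1, between whose WT levels Slamf1 lies. The defining markers Kit, Procr and Ly6a were not analysed here. In such bulk samples, fewer cells of a type and less RNA per cell cannot be told apart.

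The reads were worked out from the values, so at a like WT level each read number stands for a range of ATF4 KO values. These ranges follow from the equation and are no separate observation. Among tested genes with WT means between 5.5 and 6.5, those with 0 reads in ATF4 KO 1 had values of 2.95 to 3.40 there. Those with 1 read had 4.78 to 5.25, and those with 2 reads 5.67 to 5.85. At this level, the gap between the ATF4 KO libraries of Ehmt1 and of Kdm5b is therefore the step from 0 reads to 1 read. Over the 7 genes whose reads were recovered, WT 1 held 10929 reads, WT 2 held 8598, ATF4 KO 1 held 8 and ATF4 KO 2 held 3.

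**Figure D1:**
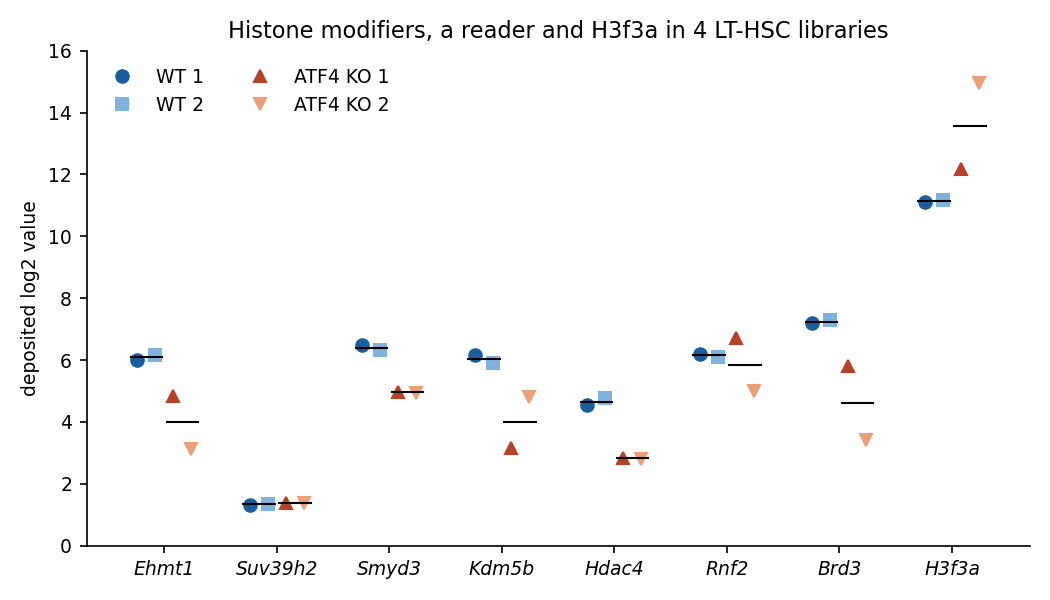
Deposited log2 values (vertical axis) of the 8 genes in each of the 4 libraries, with a line at each genotype's mean (n = 2). Both ATF4 KO values lie below both WT values for Ehmt1, Smyd3, Kdm5b, Hdac4 and Brd3, Rnf2 overlaps, and H3f3a is higher in both ATF4 KO libraries.

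Of the promoters in RefSeq's table (GRCm38.p6, 250 bases before to 50 after the start), 7 belonged to these genes, and Smyd3 had none. The ATF4 and C/EBP composite element, searched as TGATGNAA on both strands, was in 0 of the 7 and in 3.97% of 32851 promoters. The cAMP response element of the CREB and ATF family, TGACGTCA, was in 1 of the 7 (Suv39h2) and in 1.79% of promoters. Its first 6 letters, TGACGT, which lie within it and were also searched on both strands, were in Suv39h2 and Kdm5b and in 7.51% of promoters. The stretches around these matches are shown because the study removed a factor of this family. The capitals mark the matching letters, which describe the sequence and not a site of binding.
Suv39h2 (chr2:3475034-3475101, minus strand): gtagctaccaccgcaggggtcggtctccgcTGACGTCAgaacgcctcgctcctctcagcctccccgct
Kdm5b (chr1:134559928-134559982, plus strand): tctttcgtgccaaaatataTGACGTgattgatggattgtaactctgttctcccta
The match began 85 bases before RefSeq's start of Suv39h2 and 231 bases before that of Kdm5b. These starts differ from those of the gene positions given below, which are from GENCODE. Apart from that of Kdm5b, the promoters were rich in CpG, the dinucleotide at which DNA is methylated. They had 30 to 46, against a median of 7 and an upper quartile of 20 over all promoters. Kdm5b had 17, above the median and below the upper quartile.

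Among the methyltransferases, Ehmt1 (GLP) forms with its partner G9a the enzyme that places mono- and dimethylation on H3K9 in euchromatin. Ehmt1 (chromosome 2, 24789928 to 24919614) was at 6.01 in WT 1, 6.18 in WT 2, 4.85 in ATF4 KO 1 and 3.14 in ATF4 KO 2. Both ATF4 KO libraries were below WT, ATF4 KO 2 by more. ATF4 KO minus WT was -2.10 ± 0.76 (SE), not called by limma (adjusted p = 0.130). It was -2.96 without ATF4 KO 1 and -1.24 without ATF4 KO 2. The reads were 1498 and 1347 in WT, 1 in ATF4 KO 1 and 0 in ATF4 KO 2. At its WT level, 5.39 reads would have been expected over the ATF4 KO pair from the size factors. The ratio of reads to expected reads was 0.185, with an exact 95% Poisson interval from 0.00470 to 1.03, so a decrease was not shown by the reads. These intervals hold counting error alone, since PCR copies of a molecule may be counted more than once.

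Suv39h2, which trimethylates H3K9 in heterochromatin and is best known from testis and embryo, was barely detected. Suv39h2 (chromosome 2, 3455815 to 3475031) read 1.33 in each WT library against 1.37 in each mutant library. The groups did not overlap, but lay 0.04 apart. It was called higher by limma, by 0.04 ± 0.003 (SE; limma, adjusted p = 0.00390). The call ended with no trend in the prior variance (adjusted p = 0.130 by limma) and with voom (limma's method for counts) on the recovered reads (0.294). Suv39h2 had about 12 reads in WT 1, about 20 in WT 2 and 0 in both ATF4 KO libraries. A gene with 0 reads is drawn from its own mean towards a constant (2.36 for ATF4 KO 1, 2.31 for ATF4 KO 2), so genes whose WT levels lie below it come out higher. Only 0.0626 reads were expected over the pair. A rise of Suv39h2 in ATF4 KO is therefore not shown by its reads, and its exons share bases with Dclre1c and Gm13184 on the opposite strand, while the strand setting of the counting is not stated.

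Smyd3, a methyltransferase described for H3K4 and for cytoplasmic kinases, was one of the 3 genes called. Smyd3 (chromosome 1, 178951960 to 179518041) read 6.48 and 6.32 in the WT pair against 4.98 and 4.94 in the mutant pair. The ATF4 KO libraries were lower and nearly equal. Smyd3 fell by 1.43 ± 0.33 (SE; limma, adjusted p = 0.0496). It had 2045 and 1429 reads in WT and 1 read in each ATF4 KO library, and these equal numbers gave the narrow ATF4 KO spread. Against 6.49 expected reads the ratio was 0.308, with an exact 95% Poisson interval from 0.0373 to 1.11. The call ended with the replicate number as a block (adjusted p = 0.257 by limma) and without a filter on low values (0.0581). It also ended without WT 1 (difference -1.35) and without WT 2 (-1.51). There the spread comes from ATF4 KO alone, and limma draws on that of all tested genes. The wide spread used in those fits is thus not that of Smyd3 itself. With voom on the recovered reads, Smyd3 differed by -1.11 and was called (adjusted p = 0.0454), as 5.45% of 1045 genes were called lower.

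**Figure D2:**
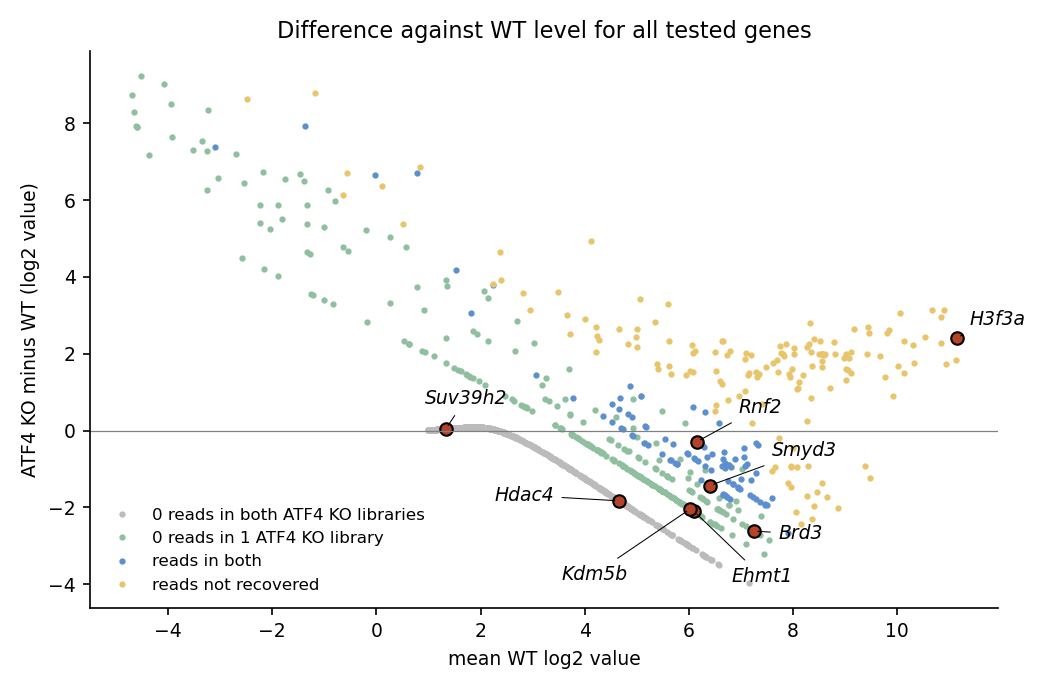
Difference between ATF4 KO and WT (vertical axis, log2 value) against the WT mean (horizontal axis) for the 1199 tested genes, coloured by the reads found in ATF4 KO, with the 8 genes marked. The grey genes, with no mutant read, fall on a single curve that passes through Suv39h2 and Hdac4.

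Kdm5b (JARID1B) removes methyl groups from H3K4 and limits the activity of promoters. Kdm5b (chromosome 1, 134560171 to 134635285) was at 6.16 and 5.89 in WT, 3.16 in ATF4 KO 1 and 4.80 in ATF4 KO 2. Here ATF4 KO 1 was the lower library, the reverse of Ehmt1. ATF4 KO minus WT was -2.04 ± 0.74 (SE), not called by limma (adjusted p = 0.129). It was -1.22 without ATF4 KO 1 and -2.86 without ATF4 KO 2. Kdm5b had 1685 and 1085 reads in WT, 0 in ATF4 KO 1 and 1 in ATF4 KO 2. The ratio to 5.15 expected reads was 0.194, with an exact 95% Poisson interval from 0.00492 to 1.08. Kdm5b and Ehmt1 thus had nearly equal WT levels and 1 ATF4 KO read each, in different libraries.

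Hdac4, a deacetylase of class IIa that moves between cytoplasm and nucleus and acts through corepressor complexes, had the lowest adjusted p of the 8 genes. Hdac4 (chromosome 1, 91928779 to 92195699) read 4.55 and 4.77 in the WT pair against 2.84 and 2.81 in the mutant pair. Both ATF4 KO libraries were lower by similar amounts. Hdac4 fell by 1.83 ± 0.12 (SE; limma, adjusted p = 0.00306). The reads were 568 and 538 in WT and 0 in both ATF4 KO libraries. Only 2.10 reads were expected over the pair, and 0 reads allow up to 3, so a decrease of Hdac4 was not detectable by the reads. Among 285 genes within a factor of 2 of its WT level, 159 (55.8%) also had 0 reads in both ATF4 KO libraries. With voom on the recovered reads Hdac4 differed by -1.07 and was not called (adjusted p = 0.105 by limma).

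Rnf2 (RING1B), the ubiquitin ligase of PRC1 that marks histone H2A, was the only one of the 8 whose groups overlapped. Rnf2 (chromosome 1, 151458004 to 151500955) was at 6.21 and 6.09 in WT, 6.70 in ATF4 KO 1 and 5.01 in ATF4 KO 2. ATF4 KO 1 was above and ATF4 KO 2 below both WT libraries. ATF4 KO minus WT was -0.29 ± 0.78 (SE), not called by limma (adjusted p = 0.760). It was -1.14 without ATF4 KO 1 and 0.55 without ATF4 KO 2, so 1 library set its direction. Rnf2 had 1631 and 1174 reads in WT, 4 in ATF4 KO 1 and 1 in ATF4 KO 2. These 5 reads compare with 5.25 expected, a ratio of 0.953 with an exact 95% Poisson interval from 0.309 to 2.22. Exons of Rnf2 share bases with Trmt1l on the opposite strand, and reads from the 2 genes there cannot be told apart without strand.

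Brd3, a reader of the BET family that binds acetylated histones, differed by more from WT than the other 7 genes, in the lower direction. Brd3 (chromosome 2, 27445579 to 27507662) was at 7.19 and 7.30 in WT, 5.82 in ATF4 KO 1 and 3.43 in ATF4 KO 2. Both ATF4 KO libraries were lower, ATF4 KO 2 by far more. ATF4 KO minus WT was -2.62 ± 1.05 (SE), not called by limma (adjusted p = 0.152). It was -3.81 without ATF4 KO 1 and -1.42 without ATF4 KO 2. Brd3 had 3490 and 3005 reads in WT, 2 in ATF4 KO 1 and 0 in ATF4 KO 2. Against 12.3 expected reads the ratio was 0.163, with an exact 95% Poisson interval from 0.0197 to 0.588. This was the only interval of the 7 genes that lay below 1.

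Around 6 of the 7 genes, reads also fell short of the expected numbers in other genes of like WT level. Over 91 recovered genes within a factor of 2 of the WT level of Brd3, the ATF4 KO libraries held 31.0% of the reads expected from the size factors. This share, the yield, was 37.1% over 209 genes around Ehmt1, 35.6% over 191 around Smyd3, 37.5% over 217 around Kdm5b, 36.8% over 215 around Rnf2 and 40.3% over 285 around Hdac4. Around Suv39h2, where hardly any reads were expected, it was 789% over 174 genes. The other yields are low estimates, since genes whose reads were not recovered, 52 near the level of Brd3 and 21 (Hdac4) to 33 (Smyd3) near the other 5, are left out. At its yield Brd3 had 2 reads against 3.81 expected, a ratio of 0.525 with an exact 95% Poisson interval from 0.0636 to 1.90. Rnf2 had 5 against 1.93, a ratio of 2.59 (0.840 to 6.04). Over the 7 recovered genes there were 11 ATF4 KO reads, against 36.7 expected from the size factors (29.96%) and 13.3 at the yields. Relative to genes of like WT level, none of these genes had an interval that left out 1. Only Brd3 could have shown a decrease in this way. The others had at most 2.31 reads expected at their yields (Smyd3), and even 0 reads allow up to 3.

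**Figure D3:**
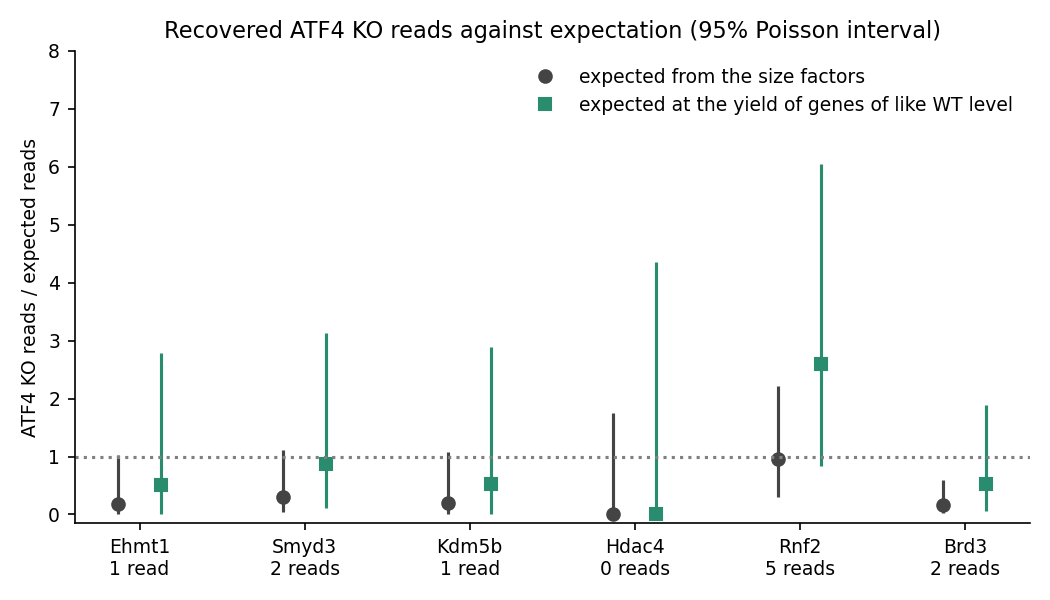
Ratio of recovered ATF4 KO reads to expected reads (vertical axis) for 6 genes, with exact 95% Poisson intervals, from the size factors (circles) and at the yield of genes of like WT level (squares). The circle of Brd3 has its interval below 1, and with the squares the intervals of all 6 genes include 1. Among the squares, only Brd3 had enough expected reads for an interval below 1 to be possible.

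H3f3a encodes the histone variant H3.3, which is placed into chromatin outside of DNA replication, and it moved in the other direction. H3f3a (chromosome 1, 180800832 to 180813943) was at 11.12 in WT 1, 11.17 in WT 2, 12.18 in ATF4 KO 1 and 14.94 in ATF4 KO 2. The WT libraries were nearly equal, and both ATF4 KO libraries were above them, ATF4 KO 2 far above. ATF4 KO minus WT was 2.42 ± 1.35 (SE), not called by limma (adjusted p = 0.248). It was 3.80 without ATF4 KO 1 and 1.04 without ATF4 KO 2. The reads of H3f3a were not recovered, but the equation bounds them, because no library can have fewer than 0 reads. ATF4 KO 1 held between 144 and 167 reads of H3f3a and ATF4 KO 2 between 1170 and 3623. The lower number for ATF4 KO 2 exceeds the 659 reads of all 1774 recovered genes in that library. No recovered gene had a mean above 169 normalised reads, so this sets H3f3a beside genes of lower level only. Normalised reads of H3f3a were at least 2.06-fold the WT mean in ATF4 KO 1 and at least 13.9-fold in ATF4 KO 2. These bounds follow from the equation and the size factors and hold no replicate error.

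A higher value in ATF4 KO was common at this level. Of 14 tested genes with a WT mean above 10, 12 had both ATF4 KO values above both WT values. H3f3a is itself counted in the 14 and in the 12. None of the 14 was called higher by limma (adjusted p under 0.05). Levels of other cells' markers also differed between the libraries, each through 1 gene of its list. Over the 4 of 8 listed myeloid genes in the table, the summed level (powers of 2 of the values) was 1947 and 1969 in WT, 20394 in ATF4 KO 1 and 13596 in ATF4 KO 2. Fcer1g made up most of it, with WT values of 10.89 against 14.31 (ATF4 KO 1) and 13.73 (ATF4 KO 2). Of the other 3, Fcgr2b and Cxcr2 were lower in both ATF4 KO libraries, and Fcgr3 was higher in ATF4 KO 1 and lower in ATF4 KO 2. The myeloid sum and H3f3a were both above WT in each ATF4 KO library. Of the 2 ATF4 KO libraries, the sum was higher in ATF4 KO 1 and H3f3a in ATF4 KO 2. For 2 of 4 megakaryocyte genes the sum was 509 and 502 in WT against 7100 (ATF4 KO 1) and 454 (ATF4 KO 2), with F5 making up most of the 7100 and Selp lower in both ATF4 KO libraries. For 6 of 7 T and NK cell genes it was 17.7, 16.5, 225 and 22.1 in the same order, and Il2ra, with 11 reads in ATF4 KO 1, was the only one of the 6 with a read in ATF4 KO. The markers of B cells in the table (Fcrla and Cr2) had 0 reads in both ATF4 KO libraries, and Col3a1, Col5a2 and Prrx1 of stroma were at 0 in all 4. The B cell genes, and the T and NK genes other than Il2ra, had WT values of at most 2.05 (Cd247). At a WT mean of 2.01, that of the chromatin gene Gtf3c4, only 0.260 reads were expected over the ATF4 KO pair. Having 0 reads at such levels cannot tell whether B, T or NK cells were present. The part of other cells in the level of H3f3a was not tested. Counting of H3f3a is also uncertain, since 37 annotated pseudogenes elsewhere match its transcript at 90% identity or more over at least 300 bases, and H3f3aos overlaps its exons on the opposite strand. The other 7 genes had 0 such copies.

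In WT, levels were compared between genes per length, as normalised reads per kilobase of exon. Brd3 was at 22.9 ± 1.4 and Rnf2 at 17.4 ± 1.1 (mean ± SD, n = 2). Smyd3 followed at 9.66 ± 0.835 and Ehmt1 at 9.09 ± 0.831, whose libraries overlapped, so their order is not resolved. Kdm5b was at 4.25 ± 0.61, Hdac4 at 1.82 ± 0.23 and Suv39h2 at 0.194 ± 0.091. Apart from Smyd3 and Ehmt1, neighbours in this order did not overlap. Reads of H3f3a allow at most 635 per kilobase in WT 1 and 657 in WT 2, and its place in the order is not fixed by them, though its deposited WT value was the highest of the 8. The H3K9 methyltransferases Ehmt1 and Suv39h2 thus differed widely in WT LT-HSCs. With the length of the longest transcript the order stayed the same, but Kdm5b came to 8.08 and Hdac4 to 3.55.

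**Figure D4:**
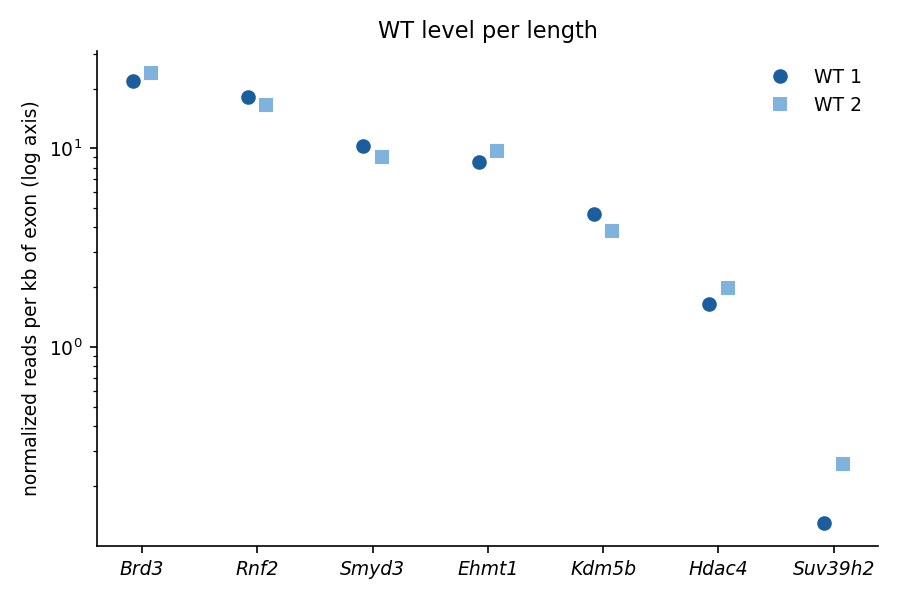
Normalised reads per kilobase of exon (vertical axis, logarithmic) in WT 1 and WT 2 for the 7 genes with recovered reads, in falling order. The libraries of Smyd3 and Ehmt1 overlap, and Suv39h2 at 0.194 is far below the others.

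In lists of 263 other chromatin genes, 16 were in the table and all 16 were tested. Of these, 3 were called lower (18.8%, against 22.4% of all tested genes) and none higher (limma, adjusted p under 0.05, against 24.6%), with a median difference of -0.93. The lower ones had 0 reads in both ATF4 KO libraries. Bmi1, the partner that activates Rnf2 within PRC1 and is needed for stem cell self-renewal, read 3.20 and 3.04 in the WT pair against 2.63 and 2.60 in the mutant pair. It fell by 0.50 ± 0.07 (SE; limma, adjusted p = 0.0180), but only 0.726 reads were expected over the pair. The coactivator Ncoa2 fell by 0.96 ± 0.05 (SE; limma, adjusted p = 0.00231), with 1.08 reads expected. The PHD finger protein Phf3 fell by 0.90 ± 0.10 (SE; limma, adjusted p = 0.00951), with 1.03 reads expected. None of these decreases was detectable by the reads.

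The other partners and relatives looked at, Smyd2, Wdr5 and Rbbp5, were not called. Smyd2, a relative of Smyd3, read 5.95 and 6.05 in the WT pair against 5.71 and 3.19 in the mutant pair, with 2 reads of 4.94 expected. Wdr5, the scaffold of the H3K4 methyltransferase complexes, read 6.11 and 6.24 in the WT pair against 3.18 and 4.82 in the mutant pair, with 1 read of 5.71 expected. Rbbp5 of the same complexes read 4.97 and 5.19 in the WT pair against 4.72 and 2.996 in the mutant pair, with 1 read of 2.63 expected. In each of the 3, 1 ATF4 KO library had 0 reads, as in Ehmt1, Kdm5b and Brd3. Members of PRC2 were not in the table. By list, the methyltransferases and cofactors had 7 genes tested with 1 lower (Smyd3) and 1 higher (Suv39h2), and the 5 readers had 1 lower (Phf3). The 5 acetyltransferase genes also had 1 lower (Ncoa2), the deacetylases and corepressors 1 of 2 (Hdac4), PRC1 1 of 2 (Bmi1), and demethylases (Kdm5b alone) and variants with chaperones (H3f3a and Set) 0.

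**Figure D5:**
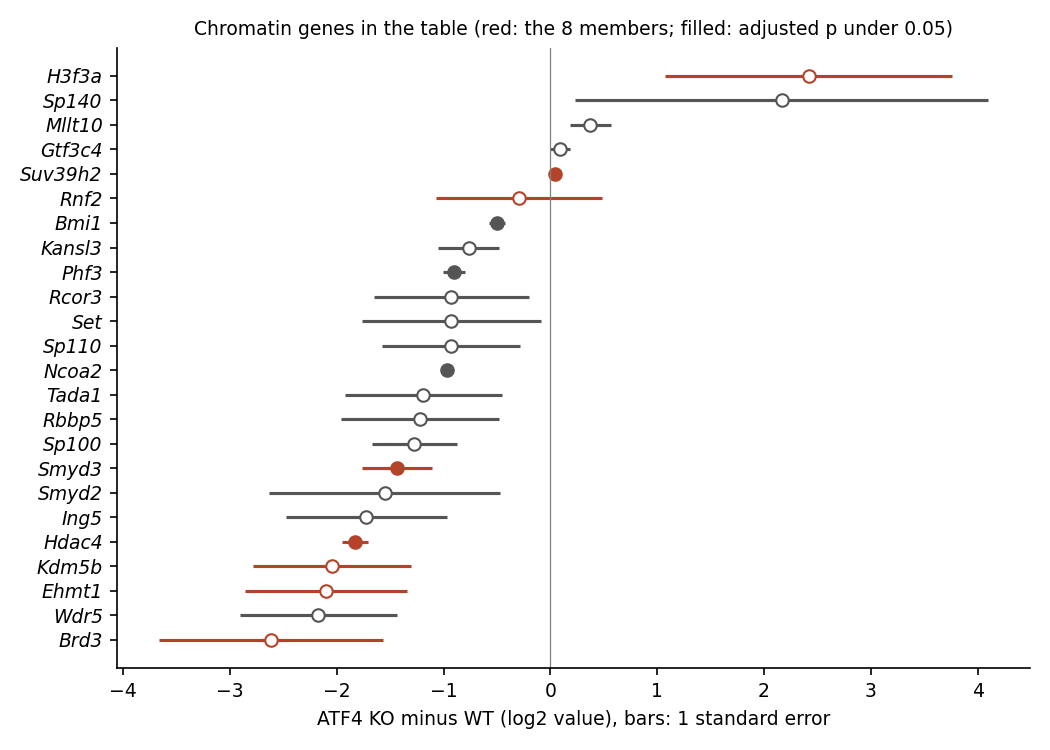
Difference between ATF4 KO and WT (horizontal axis, log2 value, bars of 1 standard error) for the 24 chromatin genes in the table, with the 8 genes in red and filled points for adjusted p under 0.05 by limma. Filled points are 5 lower genes and Suv39h2.

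For each of the 8 genes, the gene of most similar pattern was taken by the Euclidean distance over the 4 deposited values, among 897 tested genes. Ehmt1 was nearest to Ddx18 (distance 0.0417), Kdm5b to Cenpf (0.207) and Brd3 to Wdr12 (0.123). Each of these pairs had the same numbers of ATF4 KO reads. Smyd3 was nearest to Tmem70 (0.198), with 1 read in each ATF4 KO library like Smyd3. Hdac4 was nearest to Frmd4a (0.109) and Suv39h2 to Spata46 (0.00437), both with 0 reads in ATF4 KO. Rnf2 was nearest to Sgk3 (0.478), which had 3 reads in ATF4 KO 1 and 1 in ATF4 KO 2. H3f3a had no close neighbour, with Arpc2 at 1.001. With 4 libraries, a like pattern reflects a like WT level and the same few reads, which were themselves worked out from these values.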

How the data were processed

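RNA of 4 libraries was measured (2 WT, 2 ATF4 KO, grouped by title). HISAT2 2.2.1, featureCounts, DESeq2 and GRCm38 are named by the submitters' processing notes, which give no roles. In the deposited table there is 1 log2 value per gene and library, and its transform is not stated. Its last line is cut off and was left out. Of the symbols, 98.8% matched GENCODE M21.

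Values met the equation of a regularized logarithm (ridge weight 0.1645, lower limit 0.5 on fitted reads). The ATF4 KO size factors came from 1399 genes with 0 reads in both libraries. The ridge weight was the one at which reads came out whole where 1 library had 0, and the WT size factors those at which low WT reads did. Because these constants were chosen for wholeness, the 466 ATF4 KO read numbers above 0, at most 0.0304 from a whole number, are no independent check. Recovery was tested on reads simulated with the same equation, which cannot test whether the deposited values follow it. The reads of 154 genes were not recovered.

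Limma 3.58.1 (R 4.3.3, statmod 1.5.0) was fitted to the log2 values as deposited, with no pseudocount, a prior variance with trend and robust estimation, on 1199 genes whose value reached 1 in 2 or more libraries. Differences are ATF4 KO minus WT, with Benjamini-Hochberg adjustment across every tested gene. With 2 against 2 libraries, a two-sided exact permutation test has 0.333 as its smallest p. Intervals are exact 95% Poisson (scipy 1.17.1). Copies were searched with BLAST 2.17.0. Same-numbered libraries did not deviate together (correlation -0.08 over tested genes). The members and lists were chosen with earlier results of these data known. The named genes were the 8 members, other listed genes that passed and averaged 3 or more, 4 partners or relatives, and the nearest gene to each member. Alternatives were no filter, no trend, a replicate block, each library left out, voom, the yield of like genes and another length. The result of 1 marker list is not reported here.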

Additional observations from a re-analysis of the deposited data

How the results depend on the processing

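The test called 268 genes lower and 295 higher. With voom 57 were lower and 110 higher, without the filter on low values 1037 were higher, and with no trend in the prior 28 were higher. Leaving out each library gave 302 to 451 lower and 332 to 441 higher genes. Of the 8 genes 2 were lower and 1 higher. The number lower was 1 without the filter, 1 with the replicate block, 1 with voom, and 1 to 6 with a library left out. The number higher was 0 with no trend and 0 with voom. At an unadjusted p under 0.05 by limma, the main test had 3 of the 8 in all. Of all tested genes, at least 47.0% passed that threshold, since this share passed the adjusted one.

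Smyd3 differed by -1.43 without the filter and with the replicate block, and was then not called. Suv39h2 was at 0.0410 with no trend (adjusted p = 0.130 by limma) and at 3.90 with voom (adjusted p = 0.294), and Hdac4 at -1.07 with voom. No other call on the 8 genes changed with the block. With a library left out, differences ranged from -2.96 to -1.24 for Ehmt1, 0.04 (0.0375 to 0.0444) for Suv39h2, -1.51 to -1.35 for Smyd3, -2.86 to -1.22 for Kdm5b, -1.94 to -1.72 for Hdac4, -1.14 to 0.55 for Rnf2 (reversed at 0.55 without ATF4 KO 2), -3.81 to -1.42 for Brd3 and 1.04 to 3.80 for H3f3a. Without ATF4 KO 1 or without ATF4 KO 2, the spread comes from WT alone.

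At the yield of like genes the expected reads were 2.0002 for Ehmt1, 0.494 for Suv39h2, 2.31 for Smyd3, 1.93 for Kdm5b, 0.847 for Hdac4, 1.93 for Rnf2 and 3.81 for Brd3. By the longest transcript the WT levels per kilobase were 12.4 for Ehmt1, 12.9 for Smyd3, 8.08 for Kdm5b, 3.55 for Hdac4, 22.4 for Rnf2 and 31.0 for Brd3, since that length is shorter. The depth of ATF4 KO limits every comparison here.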
